A study of Homo sapiens with 4 samples.

Results

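Of the 35605 WDR5 CUT&RUN peaks called in DMSO-treated HSSY II cells, 16679 lay away from promoters, overlapped no SS18::SSX peak, and had no overlapping WDR5 peak once the cells had been treated with MS67. These sites, the lost distal WDR5-only sites, were chosen by 3 measured peak lists (WDR5 with DMSO, WDR5 with MS67, and SS18::SSX with DMSO) together with the GENCODE 44 annotation of hg38. A shared site needed an overlap of at least 1 bp. A promoter meant the 1000 bp before and the 100 bp after any start site of a protein-coding or long noncoding RNA (lncRNA) gene. Start sites were those of every annotated transcript of these genes, so a start can lie well inside a gene. Unless called the first, a start named below is the transcript start nearest to the site. A further 3664 WDR5-only distal peaks did overlap a WDR5 MS67 peak and are called kept here. The remaining WDR5 DMSO peaks were 6660 lost and 3644 kept WDR5-only promoter peaks and 4958 peaks that overlapped SS18::SSX. Peaks without an MS67 partner made up 82.0% of the WDR5-only distal peaks and 75.0% of all WDR5 DMSO peaks. The rule itself fixes these shares, so they are given as a description with no test. "Lost" means only that no peak was listed in the MS67 library. The number depends on the height required of a peak: where the DMSO peak had to exceed a −log10 q of 3 and a fold enrichment of 6, 1946 lost sites were left, 62.6% (95% CI 60.9 to 64.3) of the WDR5-only distal peaks that passed. Those limits are the ones the study set for WDR5 peaks when it compared peak lists, and the deposited lists reach below them.

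WDR5 is a WD40-repeat scaffold of the KMT2/MLL complexes, the writers of histone H3 lysine 4 methylation, where it works beside RBBP5, ASH2L, and DPY30. Trimethylation by these complexes marks active promoters, and KMT2C and KMT2D are known for monomethylation at enhancers, so a WDR5 peak away from a start site can lie at an enhancer, in the body of a transcribed gene, or in a CpG island without an annotated start. SS18::SSX is the fusion oncoprotein of synovial sarcoma (SS). It sits in SWI/SNF chromatin remodelling complexes. MS67 is a proteolysis targeting chimera (PROTAC) that brings WDR5 to the VHL ubiquitin ligase and leads to its degradation.

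HSSY II is an SS18::SSX1-positive SS cell line, and every library came from this 1 line. Cells received DMSO or 2.5 μM MS67 for 4 days, and each CUT&RUN library used 1000000 HSSY II cells plus 50000 murine NIH-3T3 cells (5%) as the spike-in. With 1 library per condition, no difference between DMSO and MS67 had a replicate check, and none was tested. Shares are given with exact Clopper-Pearson 95% confidence intervals (CIs) and medians with exact binomial intervals, and both cover counting error only. Fragments at a summit were recovered from the fold enrichment and p-value of each peak. The WDR5 MS67 library had 0.458 times the genome-wide coverage of the WDR5 DMSO library and listed 14123 peaks. Coverage means the depth of fragments stacked over a position, taken as the lowest background of a list, and was 0.168 against 0.368.

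Sequences of the 200 bp on the summit are shown for 7 lost sites and 1 kept site, because the base composition and motifs described below are read from such windows. The lost sites shown are the pair of highest −log10 q, the highest with each of 4 motifs, and the highest in *AUTS2*, among windows that touch no annotated exon. All are hg38, plus strand, 5′ to 3′, and capitals mark every match to the 12 motifs searched.
chr12:188993-189192, distal lost, highest -log10 q: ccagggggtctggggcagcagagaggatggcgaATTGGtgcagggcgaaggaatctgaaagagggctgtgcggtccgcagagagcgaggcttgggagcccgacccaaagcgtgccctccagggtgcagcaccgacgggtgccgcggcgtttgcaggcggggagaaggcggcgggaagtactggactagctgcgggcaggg
chr13:27361934-27362133, distal lost, next highest: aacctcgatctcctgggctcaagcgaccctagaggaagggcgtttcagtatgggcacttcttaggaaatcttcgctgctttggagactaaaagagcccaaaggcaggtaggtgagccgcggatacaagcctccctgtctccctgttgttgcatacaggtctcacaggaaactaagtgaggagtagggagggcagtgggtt
chr10:43105403-43105602, distal lost, *RET*: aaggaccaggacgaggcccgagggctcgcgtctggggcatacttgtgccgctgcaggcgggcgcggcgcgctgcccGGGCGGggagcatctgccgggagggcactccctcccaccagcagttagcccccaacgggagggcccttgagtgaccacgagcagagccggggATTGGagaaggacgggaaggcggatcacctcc
chr10:43304764-43304963, distal lost, nearest coding start *RASGEF1A*: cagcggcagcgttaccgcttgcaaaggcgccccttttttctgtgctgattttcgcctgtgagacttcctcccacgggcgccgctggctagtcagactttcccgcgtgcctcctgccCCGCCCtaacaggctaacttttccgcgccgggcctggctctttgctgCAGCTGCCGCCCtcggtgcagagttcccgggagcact
chr6:52839550-52839749, distal lost, *GSTA5*: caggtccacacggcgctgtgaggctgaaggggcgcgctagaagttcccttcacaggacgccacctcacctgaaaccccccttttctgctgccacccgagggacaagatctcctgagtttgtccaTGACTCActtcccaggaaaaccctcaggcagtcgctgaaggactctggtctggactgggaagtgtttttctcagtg
chr6:10017390-10017589, distal lost, nearest coding start *TFAP2A*: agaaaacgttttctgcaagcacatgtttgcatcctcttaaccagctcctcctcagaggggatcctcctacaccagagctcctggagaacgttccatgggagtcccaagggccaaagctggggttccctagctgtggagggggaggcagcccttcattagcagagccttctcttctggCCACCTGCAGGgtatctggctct
chr7:70457997-70458196, distal lost, *AUTS2*: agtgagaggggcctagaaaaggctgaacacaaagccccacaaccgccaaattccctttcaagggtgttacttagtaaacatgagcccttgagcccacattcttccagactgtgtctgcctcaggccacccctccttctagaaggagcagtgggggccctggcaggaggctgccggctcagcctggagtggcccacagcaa
chr19:57664387-57664586, distal kept, *ZSCAN4*: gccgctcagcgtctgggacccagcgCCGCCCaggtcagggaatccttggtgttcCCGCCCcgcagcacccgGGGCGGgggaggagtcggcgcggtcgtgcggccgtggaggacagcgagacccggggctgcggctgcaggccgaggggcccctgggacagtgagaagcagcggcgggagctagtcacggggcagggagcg

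In the *RET* window the capitals are an SP/KLF match (GGGCGG) and an NFY match (CCAAT, here on the other strand). The window nearest to *RASGEF1A* held CAGCTG with an SP/KLF match directly behind it, and the *GSTA5* window held the AP-1 letters. The window of highest −log10 q held an NFY match alone. No searched motif was found in the second window or in the *AUTS2* window, which had 2 CpG dinucleotides. The kept *ZSCAN4* window had 22 CpGs, a GC content of 75.5%, and 3 SP/KLF matches.

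The lost sites lay mostly in introns and between genes. By peak centre, 9821 of 16679 (58.9%, 95% CI 58.1 to 59.6) were in introns, 5064 (30.4%, 95% CI 29.7 to 31.1) were between genes, 592 (3.55%) were in coding exons, 543 (3.26%) were in untranslated regions, and 659 (3.95%) were in other exons. Outside promoters, introns held 54.5% of the genome sequence and the space between genes 41.4%. The lost sites were thus 1.08 times as frequent in introns and 0.733 times as frequent between genes as the sequence itself, and 3.52 times as frequent in coding exons, which made up 1.01% of it. Kept distal sites were in introns at nearly the same share (59.3%, 95% CI 57.7 to 60.9) but less often between genes (22.5%, 95% CI 21.1 to 23.9) and more often in exons of any kind (18.2% against 10.8%).

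Many of the lost sites were close to a start site, although outside the promoter window. The median distance to the nearest start was 7397 bp (95% CI 7092 to 7700), and the lower quartile was 1325 bp. Within 1 kb of a start lay 2963 (17.8%), all downstream since the rule removed the 1000 bp upstream, and within 2 kb lay 5431 (32.6%). At the far end, 7423 (44.5%) were more than 10 kb away and 956 (5.73%) more than 100 kb away. The word distal therefore covers both sites in the first kilobase after a transcript start and remote sites. The kept sites were closer, with a median of 1345.5 bp and 42.0% (95% CI 40.4 to 43.6) within 1 kb. Across the WDR5-only distal peaks, 65.8% (95% CI 64.4 to 67.2) of those within 1 kb of a start were lost. The share was 84.2% at 1 to 2 kb, 86.7% at 2 to 5 kb, and 89.1% (95% CI 87.1 to 90.9) beyond 100 kb.

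**Figure D1:**
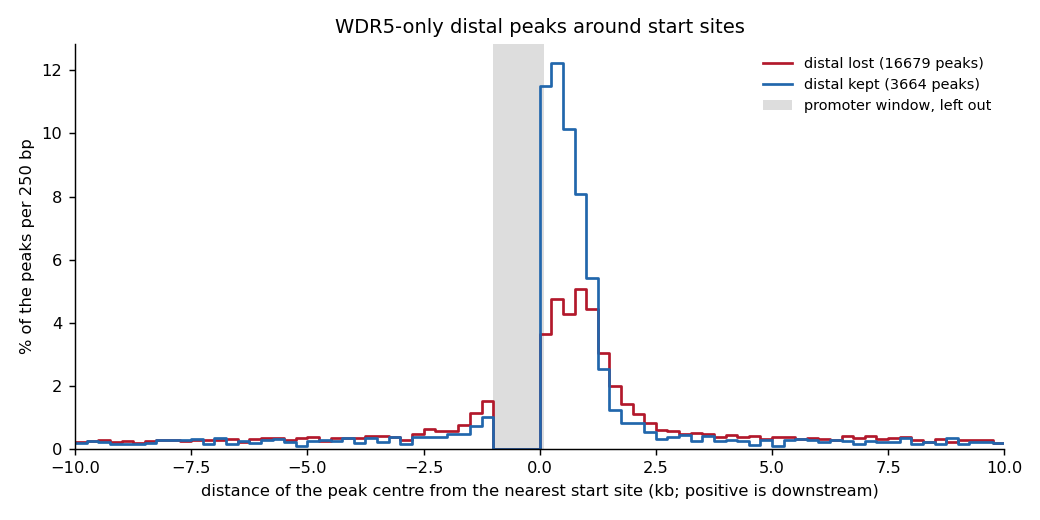
Percent of the WDR5-only distal peaks (y axis, per 250 bp) against the distance of the peak centre from the nearest start site (x axis, kb, positive downstream), for 16679 lost (red) and 3664 kept (blue) peaks. Kept peaks pile up in the first kilobase downstream of starts (42.0% against 17.8% of lost peaks), and the grey promoter window holds no peak by the rule, which also cuts off part of the first bin downstream.

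Just inside and just outside the promoter limits the sites looked alike. The 440 lost sites in the first 100 bp past the downstream end of the window had a median −log10 q of 4.46 and a median width of 307 bp, and the 1175 lost promoter peaks in the 100 bp before it had 4.39 and 289 bp. At the upstream end, 131 lost sites in the 100 bp outside had a median −log10 q of 4.17, and 145 lost promoter peaks in the 100 bp inside had 4.10. At the overlap limit, 257 lost sites had a WDR5 MS67 peak no more than 100 bp away (median −log10 q 4.15), and 334 kept sites overlapped theirs by no more than 100 bp (3.96).

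The lost sites were low peaks in the DMSO library. Their median −log10 q was 3.84 (95% CI 3.80 to 3.87, from 1.30 to 25.6), their median fold enrichment 4.40, their median width 247 bp, and their median summit 11 fragments over a background of 1.50. Kept distal sites had a median −log10 q of 5.90 (95% CI 5.76 to 6.01), fold enrichment of 5.21, width of 437.5 bp, and summit of 15 fragments. No more than 10 summit fragments were found at 46.8% of the lost sites and at 21.6% of the kept sites. Peak height and overlap with the MS67 list both belong to the rule's contrast, so these values describe the members and test nothing. In 10 groups of about equal size ordered by −log10 q, the share lost was 92.9% (1894 of 2039) in the lowest, with a median −log10 q of 1.91, 88.9% in the 5th, and 50.9% (1035 of 2034, 95% CI 48.7 to 53.1) in the highest, with a median of 10.0.

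Depth bears on the low sites. Each summit and its background were multiplied by 0.458, the fragments were rounded, and the Poisson −log10 p was compared with 4.06, the smallest in the WDR5 MS67 list. The scaled values of 8253 lost sites (49.5%, 95% CI 48.7 to 50.2) reached this limit, and those of 8426 did not. The scaling allows for neither counting error nor the choice of summits by their DMSO height. A site near the limit could thus be missed or called with unchanged signal, and the split is approximate. For the second group, loss of the peak cannot be told from lower depth. The share reaching the limit was 76.4% (95% CI 75.0 to 77.8) for kept distal sites, 57.3% for lost promoter peaks, and 59.4% for all WDR5 DMSO peaks. Scaled values of only 693 lost sites (4.15%) reached 7.00, the median −log10 p of the MS67 list, compared with 20.7% of the kept sites. Among WDR5-only distal peaks above the limit, 74.7% (95% CI 73.8 to 75.5) were lost, and among those below it, 90.7% (95% CI 90.1 to 91.3). Some peaks below the limit thus still overlapped an MS67 peak.

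**Figure D2:**
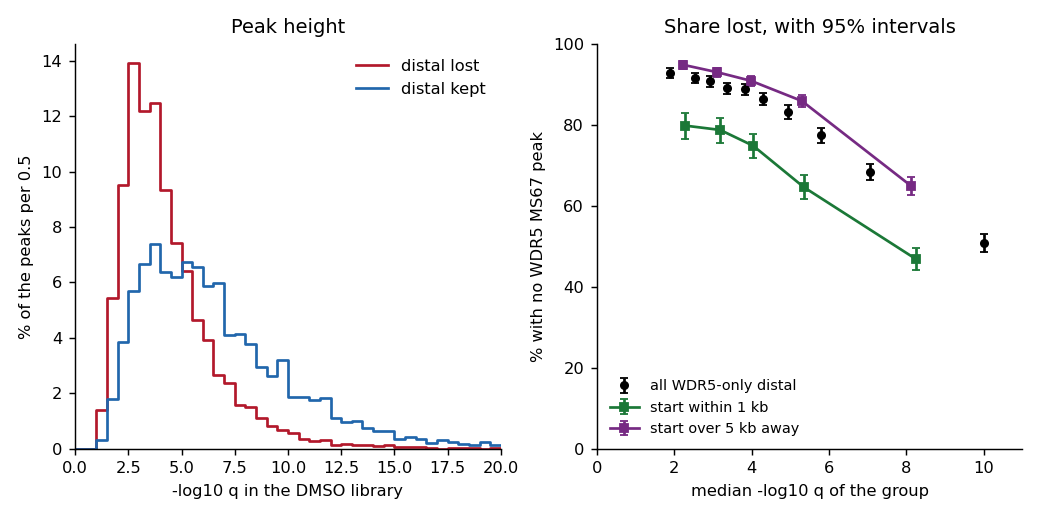
Left, percent of lost (red) and kept (blue) WDR5-only distal peaks per 0.5 units of −log10 q in the DMSO library (peaks above 20 not drawn). Right, percent lost against the median −log10 q for 10 groups of all WDR5-only distal peaks (black, falling from 92.9% to 50.9%) and for 5 groups with a start within 1 kb (green) or over 5 kb away (purple), with exact 95% intervals.

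At matched height, nearness to a start still went with a lower share lost. WDR5-only distal peaks were cut into 5 groups by −log10 q. In the lowest group, 79.8% (95% CI 76.6 to 82.9) of the peaks within 1 kb of a start and 94.9% (95% CI 93.9 to 95.7) of those over 5 kb away were lost. In the highest group the shares were 46.9% (95% CI 44.2 to 49.7) and 64.9% (95% CI 62.6 to 67.2), and the intervals stayed apart in each of the 5 groups. The rule used both the distance to a start and the overlap with the MS67 list, so these shares describe the peaks and test nothing. The intervals count peaks, not libraries. Peaks near starts were also wider and richer in GC at the same height, and their part in this difference was not tested.

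GC content, which the rule did not use, was lower at lost than at kept sites. The 200 bp on the summit had a median GC content of 54.0% (95% CI 53.5 to 54.0) at lost distal sites, 59.5% (95% CI 59.0 to 59.5) at kept distal sites, and 58.0% over all WDR5 DMSO peaks. Both stood above their surroundings, since windows 2 kb to either side had medians of 45.5% and 46.5%, and the genome outside promoters averaged 40.6%. Windows under 50% GC made up 33.0% of the lost and 14.5% of the kept sites. The observed-to-expected CpG ratio had medians of 0.282 and 0.424. Windows with the composition of a CpG island (GC of at least 55% and a ratio of at least 0.65) made up 10.1% (95% CI 9.67 to 10.6) of the lost distal, 23.3% (95% CI 21.9 to 24.7) of the kept distal, and 38.2% of the lost promoter peaks. At the opposite end, 1204 lost sites (7.22%) and 93 kept sites (2.54%) held no CpG at all.

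**Figure D3:**
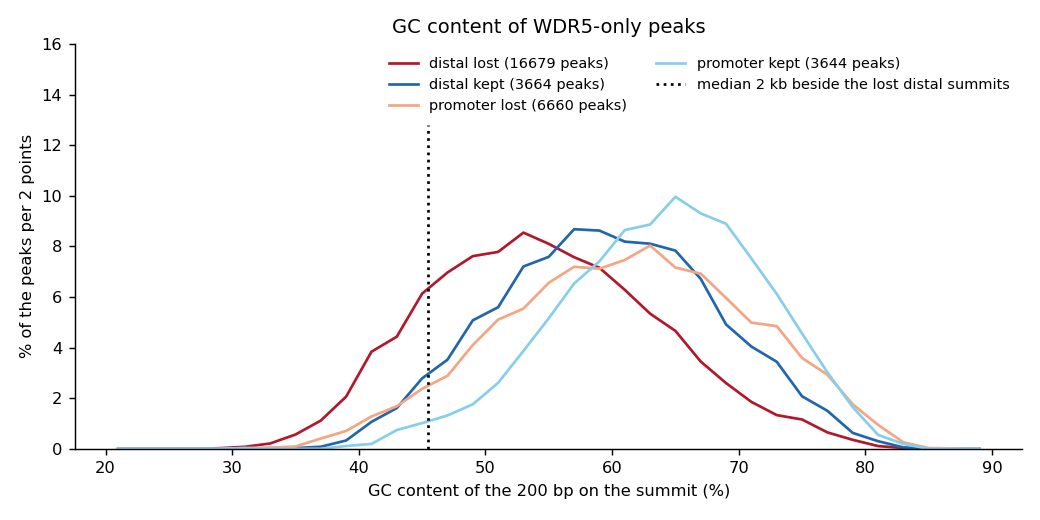
Percent of WDR5-only peaks per 2 points of GC content of the 200 bp on the summit, for lost and kept distal and promoter peaks, with the median beside the lost distal summits (45.5%) dotted. The lost distal peaks lie furthest to the left, with a median of 54.0%.

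Ordered into 5 groups by GC content, 92.6% (95% CI 91.8 to 93.4) of the WDR5-only distal peaks of lowest GC (median 43.5%) and 70.0% (95% CI 68.6 to 71.5) of those of highest GC (median 68.0%) were lost. The lowest GC group also had lower peaks, with a median −log10 q of 3.40 against 4.81. Within the lowest of 5 groups by −log10 q, 96.2% of low-GC and 83.1% of high-GC peaks were lost, and within the highest, 81.1% (95% CI 76.6 to 85.1) and 52.5% (95% CI 49.6 to 55.3). These pairs were not matched in every respect. In the lowest group the low-GC and high-GC peaks had median −log10 q of 2.21 and 2.28 and median widths of 212 and 221 bp, but in the highest group 7.49 and 8.47 and widths of 330 and 580 bp. Over 5 groups by width, the share lost fell from 93.9% (median 169 bp) to 57.3% (median 617 bp). The part of height and width in the difference with GC content was not tested.

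Short motifs were searched on both strands in the summit windows and in windows of the same length 2 kb to either side, which serve as the local comparison. The letters were TGANTCA for AP-1 (FOS and JUN dimers), GGAATG for TEAD, the partners of YAP, TGACGTCA for CRE, CCGGAAG for ETS, GGGCGG for SP/KLF zinc finger factors, CCAAT for NFY, CACGTG for the MYC E-box, CAGCTG for the E-box of myogenic and neurogenic bHLH factors, TGTGGTT for RUNX, and AAGATGG for YY1. CTCF and NRF1 were searched by their consensus. GC-rich letters are found more often in GC-rich windows, and a match is a description of the letters, not a bound site.

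At lost distal summits CAGCTG was present in 2633 windows (15.8%, 95% CI 15.2 to 16.3) against 9.10% (95% CI 8.79 to 9.41) beside them, a ratio of 1.74. Kept distal summits had it in 17.6% and all WDR5 DMSO peaks in 15.4%. The GC-rich SP/KLF letters were found at 13.4% (95% CI 12.9 to 13.9) of the lost summits and 7.70% of their flanks, and at 23.5% (95% CI 22.1 to 24.9) of the kept summits. Lost promoter summits held SP/KLF in 32.3%. The CTCF consensus, that of the insulator and loop anchor factor, was found at 309 lost summits (1.85%, 95% CI 1.65 to 2.07) and in 0.788% of the flanks, a ratio of 2.35, the highest ratio of the 12 motifs at these sites. Kept distal sites had CTCF at 1.64% (95% CI 1.25 to 2.10), an interval that overlaps that of the lost sites. The ETS letters had a ratio of 1.66 and the MYC E-box 1.56.

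AP-1 and TEAD letters, both common at enhancers of mesenchymal cells, had ratios to their flanks of 1.08 and 1.14 at lost summits. AP-1 was at 953 lost summits (5.71%, 95% CI 5.37 to 6.08) against 5.32% (95% CI 5.08 to 5.56) beside them, and the intervals overlap. TEAD was at 12.1% (95% CI 11.6 to 12.6) against 10.6% (95% CI 10.2 to 10.9), and these intervals do not overlap. At kept distal summits AP-1 was at 4.28% and TEAD at 10.4%, and over all WDR5 DMSO peaks AP-1 was at 4.69%. The AP-1 and TEAD ratios to the flanks were 0.760 and 0.984 at kept distal summits. They were 0.695 and 0.976 at lost promoter, 0.572 and 0.913 at kept promoter, and 0.794 and 0.940 at SS18::SSX-overlapping summits. Over all WDR5 DMSO peaks they were 0.878 and 1.05. NFY letters were scarcer on the summit (18.6%) than beside it (23.5%), as were YY1 letters (3.23% against 3.77%). Of the WDR5-only distal peaks with AP-1 letters, 85.9% (95% CI 83.7 to 87.9) were lost, compared with 72.2% (95% CI 70.6 to 73.7) of those with SP/KLF letters, and the latter windows had a median GC content of 65.0% against 51.5%. The intervals are not adjusted for the 12 motifs.

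**Figure D4:**
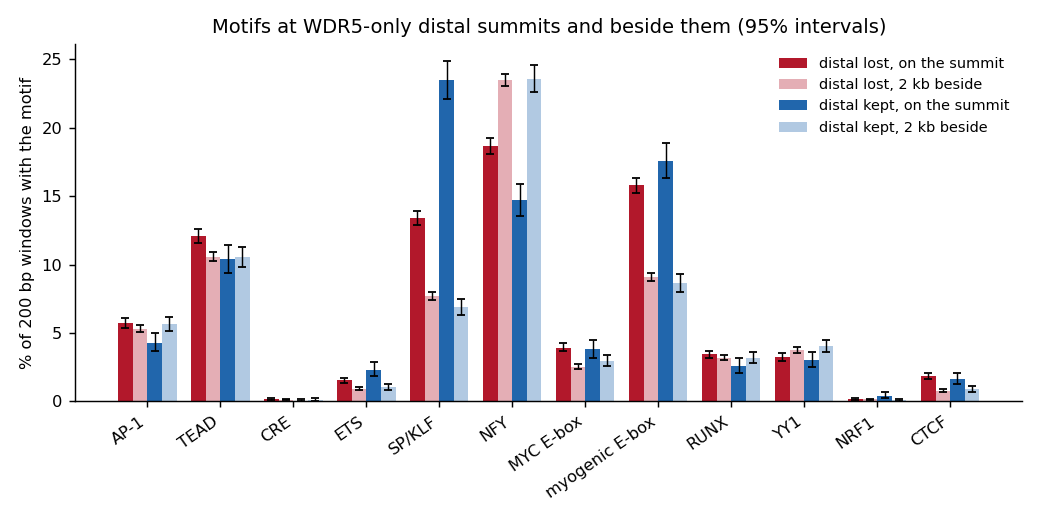
Percent of 200 bp windows with each of 12 motifs at lost (red) and kept (blue) WDR5-only distal summits and, in pale colours, 2 kb to either side, with exact 95% intervals. Myogenic E-box stands for the E-box found at 15.8% of lost summits, and SP/KLF shows the widest gap between lost (13.4%) and kept (23.5%) summits.

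The highest lost sites were well above the limit that depth sets. The site of highest −log10 q (25.6, 13.2-fold enrichment, 32 fragments over a background of 1.49) lay on chromosome 12 from 188983 to 189255, between genes, 3917 bp from the start of the lncRNA ENSG00000255671 and 9935 bp from that of *SLC6A12*, a betaine and GABA transporter gene. Its nearest WDR5 MS67 peak was 13331 bp away. The second (24.3, 36 fragments) lay between genes on chromosome 13 from 27361783 to 27362346, 11283 bp from *LINC01079*, with an SS18::SSX peak 346 bp away. The third (23.5, 41 fragments) was in an intron of *CDC14B*, a dual-specificity phosphatase gene, 603 bp downstream of its start, and a WDR5 MS67 peak lay 401 bp from it. Scaled to MS67 coverage, these 3 summits came to 14.7, 16.5, and 18.8 fragments.

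The other 7 of the 10 highest followed the same mixture of sites near transcript starts and remote sites. At *MROH1* on chromosome 8 (22.1), the site lay 1042 bp upstream of a start, with a WDR5 MS67 peak 37 bp and an SS18::SSX peak 215 bp away, in a stretch of raised background. At *NANOS1*, a regulator of germ cell development (22.0, 40 fragments), it lay in an untranslated region 290 bp downstream of the start. On chromosome X, it was 154 bp downstream of the start of the lncRNA ENSG00000290740 (21.7). The *GSTA5* site (20.8) had the highest fold enrichment of all lost sites, 14.2, with 20 fragments over a background of 0.479. *GSTA5* belongs to a cluster of similar glutathione transferase genes, and read placement there was not tested. At *RET*, a receptor tyrosine kinase gene (20.8, 34 fragments), the site of 1151 bp had its centre in a coding exon. It lay 379 bp downstream of the nearest transcript start, and an SS18::SSX peak was 125 bp away. *KLHL31*, a gene of muscle development, carried a site in a coding exon 3298 bp downstream of its start (20.6), and the site nearest to *FOXQ1*, a forkhead factor gene, lay 15546 bp upstream of it (20.5), 705 bp from a WDR5 MS67 peak. Of the 10 highest lost sites, 3 (*CDC14B*, *MROH1*, and *FOXQ1*) thus had a WDR5 MS67 peak within 1 kb, and 3 (the chromosome 13 site, *MROH1*, and *RET*) had an SS18::SSX DMSO peak within 1 kb.

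The widest lost sites were 1822 bp at *CLDN5*, the endothelial tight-junction gene (−log10 q 7.71, 607 bp downstream of the start), 1677 bp in an intron of *SH3RF3* (10.3, in a stretch of raised background), and 1585 bp in an intron of *ERCC6L2*, 390 bp from the start of *LINC00092* (8.49). For comparison, the 3 highest kept distal sites were in *PARD3* (32.1, 68 fragments, raised background), on chromosome 21 from 6373666 to 6374462 (31.9), and 4316 bp upstream of *ZSCAN4*, a zinc finger gene of early embryos (30.3).

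Some lost sites had other peaks close by. A WDR5 MS67 peak lay within 1 kb of 2375 lost sites (14.2%, 95% CI 13.7 to 14.8) and within 10 kb of 4866 (29.2%), and the median distance to the nearest was 31966 bp. An SS18::SSX DMSO peak lay within 1 kb of 1734 lost sites (10.4%, 95% CI 9.94 to 10.9) and of 11.2% (95% CI 10.2 to 12.3) of kept distal sites, intervals that overlap. WDR5-only distal peaks with SS18::SSX within 1 kb were lost at 80.9% (95% CI 79.1 to 82.5) and the others at 82.1% (95% CI 81.6 to 82.7). Another lost site lay within 1 kb of 2399 lost sites (14.4%) and within 10 kb of 5538 (33.2%), so neighbouring sites are not independent. Chains of 5 or more lost sites, each within 10 kb of the next, numbered 36 and held 201 sites (1.21%).

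A pair of these chains, chosen after their values were seen, are described here. The longest by count held 9 sites over 42909 bp at *PXDN*, which encodes an extracellular matrix peroxidase, among 12 WDR5 DMSO, 4 WDR5 MS67, and 4 SS18::SSX DMSO peaks. At *MMP14*, the membrane-type matrix metalloproteinase, 6 lost sites over 15408 bp were the only WDR5 DMSO peaks of the stretch, with no WDR5 MS67 and no SS18::SSX peak. Their −log10 q was 18.4 (30 fragments, 1234 bp downstream of the start), 2.65, 1.88, 5.86, 1.83, and 2.42 in order of position, the first 4 in introns and the last 2 past the gene. A single site was high there, and 2 of the 6 were above the depth limit.

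By nearest protein-coding start, lost sites belonged to 7647 of 20007 protein-coding genes, and 4397 of these had a single site. At the upper end, 180 genes had 10 or more and together held 15.1% of the lost sites. Of the 8 genes with most lost sites, the 7 described here were between 507 and 1214 kb long, and the median protein-coding gene had 27.5 kb. The counts given for each are of lost and kept distal sites. *PARD3*, a cell polarity gene, had 43 lost and 17 kept distal sites, with a median background of 3.07. *AUTS2*, a neurodevelopmental regulator associated with a noncanonical Polycomb complex, had 41 and 3. *CDH4*, a cadherin gene, had 28 and 2, *GSE1* 28 and 2, and *PCDH9*, a protocadherin gene, 25 and 2. On chromosome 8, *CSMD3* had 24 and 3, and *VPS13B* 22 and 2. *GSE1* lay in a stretch with a median background of 3.66, compared with 1.50 over all lost sites.

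*AUTS2* was the gene with the most lost sites among those free of raised-background bins. In the gene (1195.21 kb on chromosome 7, from 69598296 to 70793506) and 50 kb to either side, 50 WDR5 DMSO peaks were listed, of which 35 were lost distal sites, 3 kept distal sites, 3 promoter peaks, and 9 peaks with SS18::SSX. The 35 lost sites ran from 32.2 to 1232 kb after the first start site, with −log10 q from 1.56 to 13.6 (median 4.26) and 6 to 31 fragments (median 15). In the same stretch 9 WDR5 MS67 peaks, 19 SS18::SSX DMSO peaks, and 0 SS18::SSX MS67 peaks were listed.

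**Figure D5:**
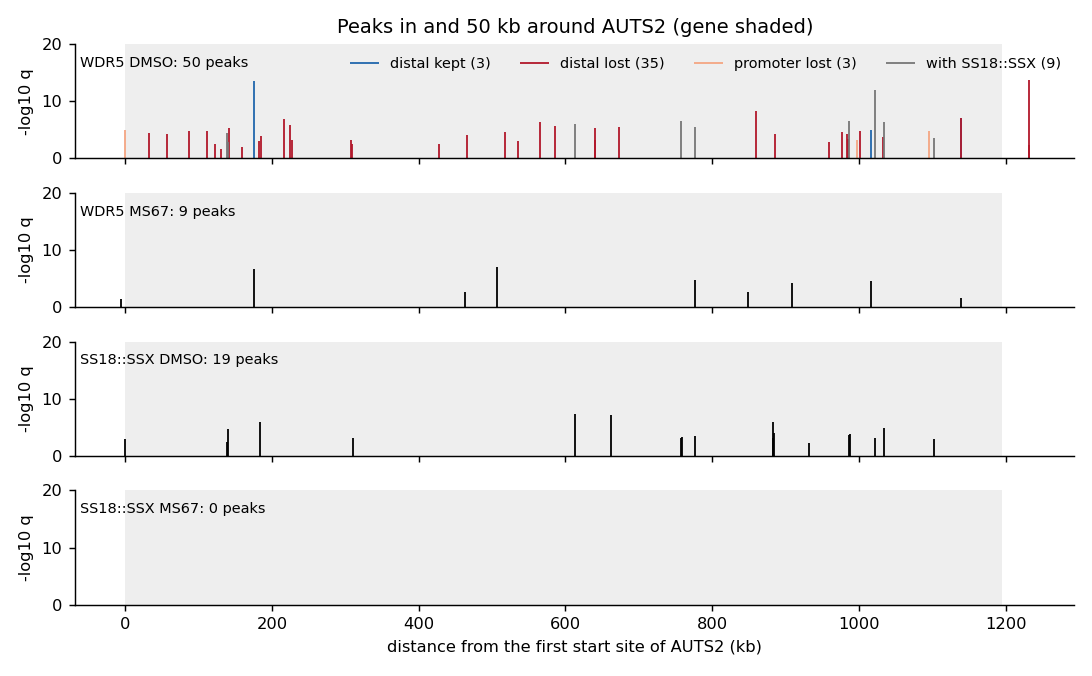
Peaks in and 50 kb around *AUTS2*, as vertical lines at their distance from the first start site (x axis, kb) with −log10 q in their own library (y axis), in 4 rows for the 4 libraries, the gene being shaded. Lost distal sites (red, 35) are spread along the gene and past its end, and 9 WDR5 peaks are listed with MS67.

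Gene lists of pathways were described by their lost sites, assigned by nearest protein-coding start, and read against the 82.0% lost over all WDR5-only distal peaks. No list was tested, neighbouring sites are not independent, and lists of large genes collect more sites. Most shares were near the background. WNT genes had 147 lost of 181 (81.2%, 95% CI 74.7 to 86.6), cytoskeletal genes 53 of 65 (81.5%), SWI/SNF subunit genes 36 of 44 (81.8%), Hippo and YAP genes 29 of 35 (82.9%), receptor tyrosine kinase genes 63 of 75 (84.0%), extracellular matrix genes 63 of 74 (85.1%), KMT2 complex genes 24 of 28 (85.7%), TGFβ and BMP genes 118 of 136 (86.8%), FGF genes 93 of 107 (86.9%), MYC network genes 26 of 29 (89.7%), and AP-1 factor genes 12 of 16 (75.0%). Hedgehog genes had a lower share, 53 of 76 (69.7%, 95% CI 58.1 to 79.8), of which *GLI2*, the transcriptional effector, had 15 lost and 12 kept sites. Above the background stood axon guidance genes (254 of 287, 88.5%, 95% CI 84.2 to 92.0), Notch genes (55 of 59, 93.2%), epithelial and mesenchymal state genes (46 of 49, 93.9%), and ribosomal protein genes (41 of 44, 93.2%, 95% CI 81.3 to 98.6, which includes the background). In that order, their lost sites had median −log10 q of 3.36, 3.35, 3.35, and 3.52, against 3.84 over all lost sites. Hedgehog (3.38) and WNT genes (3.42) were low as well, and the part of height was not tested. The intervals are not adjusted for the 17 lists.

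Within these lists, the pair of genes with most lost sites is given, each with its lost and kept sites. In the WNT list, the receptor gene *FZD8* had 21 lost and 18 kept sites at a median background of 8.89, and the effector gene *TCF7L2* 17 and 0. *FGFR2* had 19 and 2 and its ligand gene *FGF9* 12 and 1. For TGFβ and BMP signalling these were *BMP7* (14 and 4) and *BMPR1B* (12 and 1), for Notch signalling *RBPJ* (12 and 1) and *HES1* (11 and 0), and for Hedgehog signalling, beside *GLI2*, the ligand gene *SHH* (12 and 1). *DCC* (17 and 3) and *EFNA5* (15 and 2) led the axon guidance list, *CDH2*, the N-cadherin gene (17 and 1), and *TJP1* (6 and 0) the epithelial and mesenchymal list, and *IGF1R* (14 and 2) and *ERBB4* (9 and 0) the receptor tyrosine kinases. *COL18A1* (9 and 1) and *DCN*, the decorin gene (7 and 0), led the matrix list. Sites counted for a gene need not lie in it. At *DCN*, 1 of the 7 lost sites did, and the highest (10.7) was 452 kb upstream. Lower numbers were found for *KMT2C* (9 and 0), *ARID1B* (8 and 2), *SMARCD3* (4 and 1), *STK3* (5 and 1), *TEAD1* (4 and 2), *ACTN1* (6 and 0), *TNS1* (4 and 0), *MXI1* (6 and 0), *ATF3* (2 and 3), *RPLP1* (5 and 1), and *RPL11* (3 and 0).

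*WDR5* itself had 3 lost sites and no kept one, 29.3, 40.6, and 90.1 kb downstream of its start, with −log10 q of 5.30, 8.11, and 3.50 and 10, 18, and 14 fragments. *FOS*, an AP-1 subunit gene, was the nearest coding gene of 3 lost sites and 1 kept site, the lost ones at 29.4 kb upstream and 15.7 and 27.5 kb downstream. The downstream site at 15.7 kb was the high one (9.01, 20 fragments), and the others had 6 and 5 fragments. *MYC* had 1 kept site, and its 6 lost sites lay 57.5 to 350.3 kb downstream, with −log10 q from 2.34 to 5.89, and 5 of them were in bins of raised background. *HES1*, a Notch target, had lost sites from 165 kb upstream to 89.9 kb downstream, the highest (5.97, 14 fragments) at 37.9 kb upstream.

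The 6 SS genes of the list, which the study names among SS oncogenes, SS18::SSX targets, or developmental genes, had 2 to 8 lost sites each. By nearest start, *MNX1* had 2 lost sites and 10 WDR5 peaks with SS18::SSX, *SOX8* 2 and 9, *NTSR1* 4 and 1, *SIM2* 5 and 2, *FOXC1* 6 and 0, and *FZD10* 8 and 0, and *FZD10* had the only kept distal site (27 of 28 lost, 96.4%, 95% CI 81.7 to 99.9, which includes the 82.0% lost over all WDR5-only distal peaks). *MNX1* is a homeobox gene, *SOX8* an SRY-box gene, *NTSR1* the neurotensin receptor, *SIM2* a bHLH-PAS factor, *FOXC1* a forkhead factor, and *FZD10* a WNT receptor. At *MNX1*, the site 9.85 kb downstream of the start had 30 fragments and a −log10 q of 8.77, and the site 33.9 kb upstream had 37 fragments over a background of 9.75 (7.55) and a WDR5 MS67 peak 460 bp away. The *SOX8* sites, 8.76 and 15.6 kb downstream of its start, were low (2.39 and 3.24), and SS18::SSX peaks lay 28 and 295 bp from them. All 4 sites at *NTSR1* lay in a bin of raised background, with −log10 q of 5.75, 2.61, 4.02, and 3.29.

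The 5 lost sites at *SIM2* had −log10 q of 7.24 and 6.01 at 35.6 and 34.8 kb upstream, 7.39 at 6.39 kb upstream, and 1.71 and 2.08 inside the gene. An SS18::SSX peak was 121 to 3033 bp from each, and the nearest WDR5 MS67 peak was 22116 bp or more away. *FOXC1* had its 6 lost sites upstream, with 10 and 16 fragments at 55.6 and 54.9 kb, 6 at 34.6 kb, and 22, 29, and 21 at 15.7, 14.9, and 14.2 kb. The highest were 8.14 at 54.9 kb and 7.29 at 14.9 kb, no MS67 peak lay closer than 26589 bp, and no SS18::SSX peak closer than 22431 bp. At *FZD10*, 8 sites ran from 120 kb upstream to 52.5 kb downstream, with −log10 q from 1.55 to 6.46, the highest at 30.4 kb upstream with 25 fragments. Above the depth limit were both sites at *MNX1*, none at *SOX8*, 1 at *NTSR1*, 3 at *SIM2*, 4 at *FOXC1*, and 3 at *FZD10*.

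The SS18::SSX MS67 list held 1175 peaks, against 15141 with DMSO. Unlike the WDR5 pair, the SS18::SSX MS67 library had the higher coverage, 0.737 against 0.541. An SS18::SSX MS67 peak overlapped 31 of 16679 (0.186%, 95% CI 0.126 to 0.264), compared with 15 of 3664 kept distal sites (0.409%, 95% CI 0.229 to 0.674), 0.150% of lost and 0.165% of kept WDR5-only promoter peaks, and 1.20% of all WDR5 DMSO peaks (426 peaks, of which 364 overlapped SS18::SSX with DMSO). The low share was thus found at WDR5-only peaks of each kind. All of these were chosen for having no overlapping SS18::SSX DMSO peak, so the share is a description and no test. At lost distal sites it was 0.574% when the overlaps that set membership had to cover 50% of the WDR5 peak. That setting also lets in peaks with a smaller SS18::SSX DMSO overlap. Of the 31, 14 had an SS18::SSX DMSO peak within 1 kb and 11 had none within 10 kb. The highest was in an intron of *SDR42E2* on chromosome 16 (13.2, 30 fragments, SS18::SSX DMSO peak 180499 bp away). It was followed by a site 936 bp downstream of the start of *CLDN11*, a claudin gene (13.0), with an SS18::SSX DMSO peak 148 bp away, and one 96780 bp downstream of the start of *INHBB*, an activin subunit gene (11.4), with one 151 bp away. These 3 were chosen after their values were seen.

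The same measures were taken over the remote sites alone. This core, sites over 5 kb from any start with no WDR5 MS67 and no SS18::SSX DMSO peak within 1 kb, held 8123 sites (48.7% of the lost sites), and 1243 kept sites met the same limits on start and SS18::SSX distance. The core had a median −log10 q of 3.60, 9 fragments, and a GC content of 52.0% (95% CI 51.5 to 52.0) against 56.5% (95% CI 56.0 to 57.0) for the kept sites, over flanks of 42.8% and 44.0%. SP/KLF letters were found at 9.13% (95% CI 8.52 to 9.78) and 17.2% (95% CI 15.2 to 19.4), AP-1 at 6.51% (95% CI 5.99 to 7.07) and 5.95% (95% CI 4.70 to 7.42), and CTCF at 2.03% and 2.33%. Within the core, 46.3% of the sites were above the depth limit, compared with 74.4% of the kept remote sites.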

How the data were processed

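CUT&RUN peaks of SS18::SSX and WDR5 were taken from HSSY II cells treated with DMSO or MS67, 1 library each. The authors used Bowtie2 (v.2.4.4) to align reads to hg38 and mm10, filtered them with Samtools (v.1.10) and Picard (v.2.18.2), and called peaks in each library with MACS2 (v.2.2.6). The authors state a standard for peaks of −log10 q above 3 and a fold above 6 for WDR5 or 3 for SS18::SSX, but the deposited lists start at −log10 q of 1.30 to 1.35 and were used whole. Other MACS2 options and a control library are not given in the sources used here. The submitters' processing notes name SAMtools 1.9, bedtools 2.28.0, and deepTools 3.3.0. For each peak the authors deposited its fold enrichment, a ratio to local background, and its −log10 p and −log10 q. The deposited score of each peak was not used. Spike-in scaling does not enter these values.

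Single peaks that shared 1 bp or more counted as overlapping, and all were annotated with GENCODE 44. The fold and p-value of a peak together fix the whole number of summit fragments and the background, and all peaks of the 4 lists were matched to within 0.001 in −log10 p. The lowest background of a list was taken as its coverage. The step and the overlap code were tested on simulated data. Motifs and GC content were read from 200 bp windows. Raised background refers to the 100 bins of 1 Mb with the highest median background among 2301 bins with at least 3 WDR5 DMSO peaks. Genes were named by a rule: the 10 highest and 3 widest lost sites, the 8 genes with most sites (1 of them is not reported here), the 2 genes with most sites in each list, every SS gene, and the 3 highest kept sites. Members and lists were chosen with earlier results of these data known. With 1 library per group no test between conditions was possible. Alternatives changed the overlap, thresholds, promoters, and merging. Python 3.11.15, numpy 2.4.6, scipy 1.17.1, pandas 2.3.3, pysam 0.24.0, and matplotlib 3.10.9 were used.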

Additional observations from a re-analysis of the deposited data

How the results depend on the processing

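The number of lost distal sites fell to 1946 with −log10 q above 3 and fold above 6, 4722 with −log10 q above 5, 4534 with as many WDR5 DMSO peaks as the MS67 list holds, and 10723 with promoters of 2500 bp to each side, and it stayed within 1.5 times 16679 under the other 5 alternatives. The share lost was 90.9% with overlap of 50% of the peak, 71.2% with sharing within 1 kb, 62.6%, 67.6%, and 66.9% under the 3 stricter lists in the order above, 87.1% with the wider promoter, 81.0% with protein-coding starts only, and 79.6% with merged peaks. The share in introns was 50.5%, 56.8%, and 57.1% under the stricter lists, 53.0% with the wider promoter, and 58.1% with protein-coding starts only. The share with an SS18::SSX peak under MS67 was 0.574% with membership set by an overlap of 50% and 0.124% with sharing within 1 kb. The overlap with the SS18::SSX MS67 peak itself stayed at 1 bp or more. The share above the MS67 calling limit was 53.9% with overlap of 50%, 46.9% with the wider promoter, 51.2% with merged peaks, and 100% under each stricter list, since those thresholds lie above the limit. Leaving out the bins of raised background kept each of these values inside its main interval or, for the count, within 1.5 times. The AP-1 share was 2.87% in windows of 100 bp and 8.48% in windows of 300 bp. With 1 library per condition, a lost peak and a shallower library cannot be told apart at the 8426 sites below the depth limit. The same holds for sites just above it, since the limit leaves out counting error. Peak lists hold no signal at sites without a peak. No paired analysis was possible because each group held 1 library.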

Other observations

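Every chromosome carried lost sites, from 1407 on chromosome 1 to 15 on chromosome Y. Per Mb of chromosome length, chromosomes 19 and 17 held most (11.5 and 9.93), followed by chromosomes 10 (7.93) and 20 (7.88), and chromosomes X and Y fewest (2.74 and 0.262). The share lost was lowest on chromosome 19 (73.7%, 95% CI 70.7 to 76.5) and chromosome X (76.7%, 95% CI 72.9 to 80.1) and highest, apart from the 15 of 16 peaks on Y, on chromosome 4 (87.6%, 95% CI 85.0 to 89.8).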
